A study of Mus musculus with 6 samples.

Results

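The promoters of 38 nuclear genes for subunits of respiratory complexes II to V were examined for binding of CDK6. The genes comprised 4 subunits of complex II, 9 of complex III, 10 of complex IV and 15 of complex V, out of 22028 protein-coding genes in the annotation. A promoter was the stretch that began 2000 bp upstream and ended 200 bp downstream of any annotated transcript start, and it counted as occupied in a library when at least 1 peak of that library overlapped it. The choice used gene function and no measured value as its criterion, but it was made with earlier results of these data known. The respiratory chain passes electrons from NADH and succinate to oxygen in the inner mitochondrial membrane, and the proton gradient it builds drives ATP synthesis by complex V. Complex II is the succinate dehydrogenase that also serves the citric acid cycle, complex III hands electrons to cytochrome c, and complex IV reduces oxygen. Apart from complex II, each of these assemblies joins nuclear and mitochondrial gene products. The nuclear genes have long been studied as targets of NRF-1 and of the ETS-family factor GABP, also called NRF-2, which recognise short motifs close to the transcript start.

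The chromatin came from murine BCR::ABL1 p185-transformed pre/pro-B cell lines, in which the endogenous Cdk6 gene was deleted (Cdk6-/-) and an HA-tagged CDK6 was expressed from a retroviral vector. One group expressed wildtype CDK6 (CDK6-WT, 2 libraries) and the other the kinase-inactive mutant CDK6-K43M (2 libraries). Both groups thus shared the oncogene, the missing endogenous protein and the vector, and an antibody against the HA tag was used for all 4 libraries. The labels do not say whether replicates came from separate lines or cultures, so that the spread between them may be technical. Binding of vector-borne CDK6 was measured, not that of the endogenous protein, and the peak lists cannot show the deletion of Cdk6 itself.

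The 4 lists held 34729 to 39797 peaks. Reads over each summit were recovered from the fold enrichment and the p-value of the peak, and their median over all peaks was 20 and 18 reads in the 2 CDK6-WT libraries and 23 and 15 in those of CDK6-K43M. The libraries stood apart by replicate number more than by variant, and results are therefore given by replicate number too. Of 9 B-lineage marker promoters, 8, 9, 8 and 9 carried a peak in CDK6-WT replicates 1 and 2 and CDK6-K43M replicates 1 and 2, and of 9 promoters of T, erythroid and myeloid markers 0 did in any list. Rag1, a recombinase gene of lymphocyte precursors, was the exception among the B-lineage genes, with peaks only in the replicate 2 lists at the percentiles 98.3 and 92.3. A peak is no measure of expression.

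The sequences under the peaks are shown first, because the motifs in them are taken up again with the values. Each is the strand of the named gene from 5′ to 3′ in the GRCm38 (mm10) build, and capitals mark matches on either strand to NRF-1 (core GCGCANGCG), ETS (CCGGAAG) or YY1 (AAGATGGCG). Stretches of the first group hold the summit of the CDK6-WT replicate 1 peak, with as many bases to either side, up to 100, as kept annotated untranslated sequence to at most 30 bases. They were chosen, after the values were seen, to show each complex, and Cox7b is shown as the member with the lowest mean percentile. Apart from Cox7b, each stretch shown holds a match to the NRF-1 core or ETS. By contrast, 19 of the 38 members had neither match within 100 bp of that summit. The median percentile of those 19 in that list was 86.8, and that of all members was also 86.8.
Sdhd (chr9:50603778-50603916, minus strand): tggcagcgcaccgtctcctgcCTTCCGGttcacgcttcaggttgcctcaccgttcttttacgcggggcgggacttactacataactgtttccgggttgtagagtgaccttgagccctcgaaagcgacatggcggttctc
Uqcr11 (chr10:80406801-80406958, minus strand): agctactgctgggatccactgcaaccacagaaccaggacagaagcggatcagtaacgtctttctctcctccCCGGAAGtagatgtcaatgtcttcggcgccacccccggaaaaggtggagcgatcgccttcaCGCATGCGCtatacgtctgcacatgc
Cox6a1 (chr5:115348963-115349163, minus strand): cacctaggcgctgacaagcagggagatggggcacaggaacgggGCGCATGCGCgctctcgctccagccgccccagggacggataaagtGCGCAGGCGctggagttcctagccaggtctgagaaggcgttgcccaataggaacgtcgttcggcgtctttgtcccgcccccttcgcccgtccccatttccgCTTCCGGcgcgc
Cox6b1 (chr7:30626122-30626260, minus strand): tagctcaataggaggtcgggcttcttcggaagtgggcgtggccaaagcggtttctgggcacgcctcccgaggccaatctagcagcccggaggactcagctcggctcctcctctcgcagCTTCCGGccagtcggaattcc
Atp5k (chr5:108434419-108434531, minus strand): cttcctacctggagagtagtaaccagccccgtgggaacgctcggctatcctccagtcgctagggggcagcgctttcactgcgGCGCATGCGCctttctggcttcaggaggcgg
Cox7b (chrX:106015600-106015729, plus strand): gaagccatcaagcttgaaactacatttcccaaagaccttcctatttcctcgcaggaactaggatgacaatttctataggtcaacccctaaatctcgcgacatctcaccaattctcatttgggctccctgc
In Cox6a1 the summit lay between 2 cores for NRF-1 on one side and an ETS match on the other, and in Cox7b none of these 3 motifs was matched. Where a match lay in or beside annotated untranslated sequence, only 30 bases around it are given. These sites belong to the 5 members with the highest mean percentiles among those with such a motif in all 4 lists, and to Uqcrc1, in which the NRF-1 consensus matched on both strands.
Sdhb, ETS (chr4:140961265-140961294, plus strand): ggctcggagaaaCCGGAAGcggccttccac
Sdhd, NRF-1 (chr9:50603909-50603938, minus strand): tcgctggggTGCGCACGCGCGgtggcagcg
Uqcrc1, NRF-1 (chr9:108936668-108936697, plus strand): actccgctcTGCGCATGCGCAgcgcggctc
Uqcrc1, YY1 (chr9:108936705-108936734, plus strand): acggaagttagAAGATGGCGgcgtccgcag
Atp5g2, NRF-1 (chr15:102671070-102671099, minus strand): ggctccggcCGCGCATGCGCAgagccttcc
Atp5j, ETS (chr16:84834847-84834876, minus strand): cggagccagggCCGGAAGtagaacggtggc
Atp5j2, YY1 (chr5:145191499-145191528, minus strand): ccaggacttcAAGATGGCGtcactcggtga

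All 38 promoters carried a peak in CDK6-WT replicate 1, where 47.0% of all protein-coding promoters did, and all 38 in CDK6-K43M replicate 1, against 48.5%. In CDK6-WT replicate 2 the count was 32 (40.1% of all promoters) and in CDK6-K43M replicate 2 it was 28 (39.4%). For a genomic region shared by both variants, the study required a peak in at least 3 of the 4 lists. Here this criterion was applied to promoters, in which the peaks need not overlap each other. A peak in at least 3 lists was found at 34 of 38 promoters, or 89.5%, against 41.3% of all promoters. In all 4 lists it was found at 26, or 68.4%, against 33.2%. None of the members was without a peak in every list, whereas 48.2% of all promoters were. The ratio of observed to expected CpG had a median of 0.77 over the members and 0.55 over all protein-coding genes. The shares were not compared at matched CpG content, and its part in their difference was not tested. By complex, at least 3 lists had a peak at 4 of 4 promoters in complex II, 8 of 9 in complex III, 9 of 10 in complex IV and 13 of 15 in complex V.

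The strength of a peak was expressed as its percentile by −log10 q within its own list, where 100 is the strongest peak of that list, and the strongest promoter peak stood for the gene. Over the members with a peak the median percentile was 86.8 in CDK6-WT replicate 1 and 88.4 in CDK6-K43M replicate 1. All promoters with a peak had medians of 78.9 and 80.4 in these lists. In the replicate 2 lists the medians of the members were 56.7 and 53.6, against 59.6 and 58.4 for all promoters, so the members stood above the general median in replicate 1 and below it in replicate 2. At a percentile of 90 or more lay 14 and 15 members in the replicate 1 lists, and 3 and 0 in the replicate 2 lists. The share of all promoters at that level was not computed, and their medians were also lower in the replicate 2 lists.

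**Figure D1:**
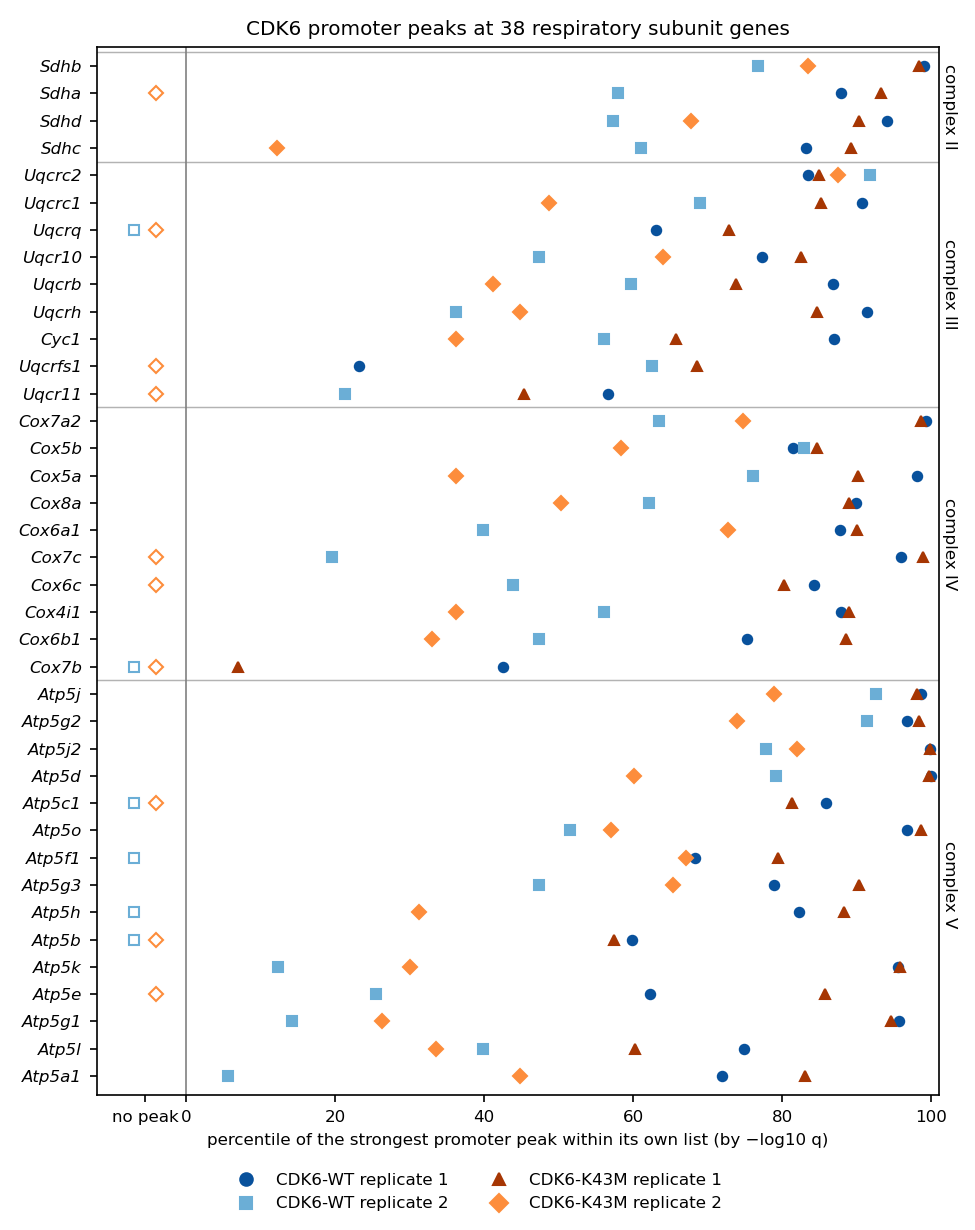
Percentile of the strongest promoter peak within its own list (x axis, by −log10 q) for each of the 38 subunit genes (y axis, grouped by complex), with 1 symbol per library and open symbols for a library without a promoter peak. The replicate 1 symbols of both variants lie to the right of the replicate 2 symbols at 24 of the 26 genes with a peak in all 4 lists.

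Complex II had a peak at every promoter in 3 lists and at 3 of 4 promoters in CDK6-K43M replicate 2. The strongest was Sdhb (chr4:140961203-140979193), which encodes the iron-sulfur subunit, at the percentiles 99.1 and 76.7 in CDK6-WT replicates 1 and 2 and 98.4 and 83.5 in CDK6-K43M. Its summits held 55, 22, 62 and 22 reads in the same order, and the 4 summits lay within 11 bp of each other. Sdhd (chr9:50596357-50603812), one of the membrane anchors, stood at 94.1 and 57.3 with CDK6-WT and at 90.3 and 67.7 with CDK6-K43M. At both genes the CDK6-K43M values lay inside the range of the CDK6-WT values. Sdhc (chr1:171127165-171150603), the other membrane anchor, had percentiles of 83.2 and 61.1 with CDK6-WT and of 89.3 and 12.3 with CDK6-K43M, the last with 11 reads over the summit. Sdha (chr13:74322254-74350280), the catalytic flavoprotein, was listed at 87.9 and 57.9 for CDK6-WT and at 93.2 for CDK6-K43M replicate 1, and had no peak in CDK6-K43M replicate 2. It had 34 and 26 reads over the CDK6-WT summits and 47 over that of CDK6-K43M replicate 1. In complex II the only missing peak and the lowest percentile were thus both in CDK6-K43M replicate 2.

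In complex III the core proteins, which form the base of the enzyme on the matrix side, ranked highest by mean percentile. Uqcrc2 (chr7:120635176-120659524) had percentiles of 83.5 and 91.8 with CDK6-WT and 84.9 and 87.5 with CDK6-K43M. It was the only one of the 26 members with a peak in all 4 lists whose replicate 2 percentiles both exceeded its replicate 1 percentiles, against 10.1% of all genes with a peak in all 4 lists. Its reads did not follow that order, with 43 and 31 reads with CDK6-WT and 46 and 24 with CDK6-K43M. The percentile is set within each list and does not carry the difference in reads between lists. Uqcrc1 (chr9:108936633-108949623) stood at 90.8 and 68.9 with CDK6-WT and at 85.3 and 48.7 with CDK6-K43M. The lowest means of the members with 4 peaks were those of Cyc1 (chr15:76343523-76346260), the gene of cytochrome c1, and Uqcrh (chr4:116066965-116075071), that of the hinge protein. Cyc1 had percentiles of 86.9 and 56.1 with CDK6-WT and 65.8 and 36.2 with CDK6-K43M, lower in CDK6-K43M within each replicate number. For Uqcrh they were 91.4 and 36.3 against 84.7 and 44.9, which differed in direction between the replicate numbers.

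Uqcrb and Uqcr10 had 4 peaks and lay between these genes, whereas the other complex III promoters lacked a peak in 1 or both replicate 2 lists. Uqcrfs1 (chr13:30540308-30545362), which encodes the Rieske iron-sulfur protein, had 13 and 19 reads over the CDK6-WT summits and 26 over that of CDK6-K43M replicate 1. Its percentiles were 23.3, 62.6 and 68.5, and CDK6-K43M replicate 2 had no peak there. Among all members it was the one with fewer reads in CDK6-WT replicate 1 than in replicate 2. Uqcr11 (chr10:80402997-80406830), a small accessory subunit, was listed at 56.6 and 21.3 for CDK6-WT and at 45.4 for CDK6-K43M replicate 1, on 14 to 19 reads. Uqcrq (chr11:53427922-53430831), another small subunit, had a peak in neither replicate 2 list, and in replicate 1 it stood at 63.1 on 21 reads for CDK6-WT and at 72.9 on 29 reads for CDK6-K43M. At these 3 promoters the replicate 1 summits held 13 to 29 reads, fewer than the median of the members in each list.

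All nuclear subunits of complex IV surround a catalytic core that is made in the mitochondrion. Cox7a2 (chr9:79755361-79759878), the widely expressed form of subunit 7a, had the highest mean percentile of complex IV, with 99.3 and 63.4 with CDK6-WT and 98.6 and 74.7 with CDK6-K43M. In single lists other subunits stood above it, Cox5b and Cox5a in CDK6-WT replicate 2 and Cox7c in CDK6-K43M replicate 1. Its summits held 57 and 20 reads with CDK6-WT and 63 and 24 with CDK6-K43M. Cox5b (chr1:36691449-36693681), the zinc-binding subunit, followed with 81.5 and 83.0 against 84.7 and 58.4. Of the members with a peak in all 4 lists it was, beside Uqcrc2, the one in which replicate 1 did not stand wholly above replicate 2. Cox4i1 (chr8:120668222-120674207), which takes part in the regulation of the enzyme by ATP, and Cox6b1 (chr7:30616861-30626151), which faces the intermembrane space, had the lowest mean percentiles among those with 4 peaks. They had percentiles of 87.9 and 75.2 in CDK6-WT replicate 1 and of 89.0 and 88.6 in CDK6-K43M replicate 1. In the replicate 2 lists they stood at 56.1 and 47.3 with CDK6-WT and at 36.2 and 33.0 with CDK6-K43M. Cox5a, Cox6a1 and Cox8a, with peaks in every list, lay between these genes.

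Peaks were missing at Cox6c, Cox7b and Cox7c, which encode small membrane-spanning subunits. Cox7c (chr13:86044816-86046904) had the widest range of complex IV, with 47 reads and the percentile 95.9 in CDK6-WT replicate 1 and 69 reads and 98.8 in CDK6-K43M replicate 1. It had 14 reads and the percentile 19.5 in CDK6-WT replicate 2, and no peak in CDK6-K43M replicate 2. Among the 10 members without a peak in that list the replicate 1 reads ran from 12 to 69 with a median of 31.5, and Cox7c was the highest of them. Cox6c (chr15:35925886-35938246) had 34 and 15 reads for CDK6-WT, 36 for CDK6-K43M replicate 1, and no peak in CDK6-K43M replicate 2. Cox7b (chrX:106015700-106022450) had the lowest mean percentile of all members, with 16 reads and the percentile 42.5 in CDK6-WT replicate 1. In CDK6-K43M replicate 1 it had 12 reads and the percentile 7.02, and neither replicate 2 list had a peak.

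Complex V held both the strongest and the weakest promoters among the members with peaks in all 4 lists, with mean percentiles from 51.4 to 92.0. Those of complex II ran from 61.4 to 89.4, of complex III from 61.3 to 86.9 and of complex IV from 61.0 to 84.0, so that the ranges of the complexes overlapped. The highest mean was that of Atp5j (chr16:84827866-84835625), whose product, coupling factor 6, belongs to the peripheral stalk. Its percentiles were 98.6 and 92.6 with CDK6-WT and 98.1 and 78.9 with CDK6-K43M, on 57, 32, 65 and 20 reads. Atp5g2 (chr15:102662864-102672352), one of 3 genes for the c subunit of the rotor ring, stood at 96.7 and 91.3 with CDK6-WT and at 98.4 and 73.9 with CDK6-K43M. These members and Uqcrc2 were the 3 at a percentile of 90 or more in CDK6-WT replicate 2. Atp5j2 (chr5:145183698-145192062), which encodes the membrane subunit f, had the most reads of any member in both replicate 1 lists but not in the replicate 2 lists, with 76 and 24 with CDK6-WT and 90 and 23 with CDK6-K43M. The percentiles of Atp5j2 were 99.9 and 77.8 with CDK6-WT and 99.8 and 82.0 with CDK6-K43M.

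The subunits of the catalytic F1 head were occupied unevenly. Atp5d (chr10:80138632-80145818), the delta subunit, stood at 99.9 and 79.1 with CDK6-WT and at 99.7 and 60.1 with CDK6-K43M, on 74, 33, 78 and 20 reads. Atp5b (chr10:128083273-128090391), the catalytic beta subunit, had 26 and 29 reads in the replicate 1 lists, at the percentiles 59.8 and 57.4, and no promoter peak in replicate 2. The nearest replicate 2 peaks lay 1683 bp from its start for CDK6-WT and 1618 bp for CDK6-K43M, downstream of the promoter window. Atp5c1 (chr2:10056016-10080510), the gamma subunit of the central shaft, likewise had peaks in replicate 1 alone, at 85.9 for CDK6-WT and 81.3 for CDK6-K43M, on 31 and 34 reads. Its percentiles there were higher than those of Cox7b, Uqcrq and Atp5b, the other members with this pattern. Atp5e (chr2:174461072-174464105), the epsilon subunit, was listed at 62.3 and 25.5 for CDK6-WT and at 85.7 for CDK6-K43M replicate 1 only. The alpha subunit gene Atp5a1 had the lowest mean percentile of the members with 4 peaks, with 71.9 and 5.63 with CDK6-WT and 83.0 and 44.9 with CDK6-K43M. Of these 5 promoters, 3 were occupied in at least 3 lists, against 41.3% of all promoters. All 3 c subunit promoters had a peak in every list, against 33.2% of all promoters. In the replicate 2 lists, however, Atp5g1 stood at 14.2 with CDK6-WT and 26.4 with CDK6-K43M, on 11 reads each. There Atp5g3 stood at 47.3 and 65.3.

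In the peripheral stalk, Atp5f1 (chr3:105942698-105960099, subunit b) and Atp5h (chr11:115415689-115419962, subunit d) were the only members that lacked a peak in CDK6-WT replicate 2 but had one in CDK6-K43M replicate 2. Atp5f1 had 25 reads in CDK6-WT replicate 1 and 46 and 20 in CDK6-K43M. For Atp5h these were 29, 40 and 13 reads, at the percentiles 82.3, 88.3 and 31.3. Atp5o (chr16:91925214-91931687), the oligomycin sensitivity protein that ties the stalk to the head, stood at 96.8 and 51.5 with CDK6-WT and at 98.7 and 57.0 with CDK6-K43M. The second gene model of that name had no promoter peak in any list and was not counted. Atp5l (chr9:44912557-44920742), the membrane subunit g, had the second lowest mean with 4 peaks, at 74.9 and 39.8 with CDK6-WT and 60.2 and 33.6 with CDK6-K43M. Atp5k (chr5:108433244-108434448), the membrane subunit e, had 58 and 61 reads in replicate 1 and 18 in each replicate 2 list. It stood above the percentile 95 in both replicate 1 lists but at 12.4 and 30.1 in replicate 2. Its background was 4.12 and 4.35 reads with CDK6-WT and 3.11 and 3.96 with CDK6-K43M, above the lowest background of every list.

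To see whether the kinase-inactive mutant bound the subunit promoters differently, the variants were compared. On average 35 ± 4.24 promoters (SD, n = 2) had a peak with CDK6-WT and 33 ± 7.07 (SD, n = 2) with CDK6-K43M. The difference of -2 was smaller than the spread between replicates, and it was 0 within replicate 1 and -4 within replicate 2. No member had a peak in both lists of one variant and in neither of the other, classes that held 0.0817% of all promoters for CDK6-WT and 0.241% for CDK6-K43M. Missing peaks fell on CDK6-K43M replicate 2 alone at 6 promoters (Sdha, Uqcrfs1, Uqcr11, Cox6c, Cox7c and Atp5e), on CDK6-WT replicate 2 alone at 2, and on both replicate 2 lists at 4.

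For the 26 members with a peak in all 4 lists, the percentiles of the variants overlapped at every gene. Among all genes with 4 peaks, both CDK6-K43M percentiles lay above both CDK6-WT percentiles at 6.77% and below them at 3.61%. The median difference of the members, CDK6-K43M minus CDK6-WT, was -0.98 percentile points, against 0.55 over all genes with 4 peaks. Within replicate 1 these medians were -0.11 and 1.09, and within replicate 2 they were -5.26 and -0.16. Per gene, an exact two-sided permutation test over the 6 assignments of the libraries cannot give a p below 0.33, and gave 0.67 at 14 members and 1 at 12. Among all 7312 genes with 4 peaks, CDK6-K43M was higher in both replicate numbers at 2126 and lower in both at 1591. Of the 26 members it was higher in both at 6 and lower in both at 8, and the remaining 12 changed sign between the numbers. Regardless of sign, the variants differed by a median of 2.79 percentile points in replicate 1, from -21.1 at Cyc1 to 13.3 at Cox6b1. In replicate 2 this median was 17.0, and the differences ran from -48.8 at Sdhc to 39.2 at Atp5a1.

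**Figure D2:**
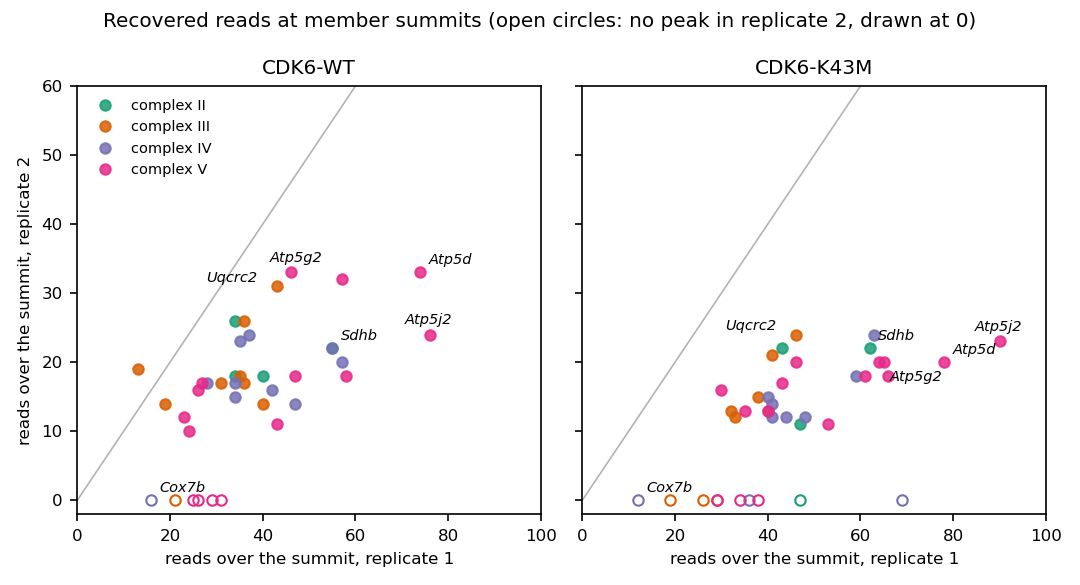
Recovered reads over the summit of the strongest promoter peak in replicate 1 (x axis) against replicate 2 (y axis) for each subunit gene, coloured by complex, for CDK6-WT (left) and CDK6-K43M (right), where the grey line marks equal reads and open circles are genes without a replicate 2 peak. All genes with a CDK6-K43M peak in both replicates and 31 of 32 with CDK6-WT lie below the line.

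The replicate numbers separated the same promoters more than the variants did. With replicate 1 there were 38 occupied promoters for each variant, 6 more than in replicate 2 for CDK6-WT and 10 more for CDK6-K43M, an average of 8 more. Both replicate 1 percentiles lay above both replicate 2 percentiles at 24 of 26 members, where 69.4% of all genes with 4 peaks showed this order. At 4 members (Uqcrq, Cox7b, Atp5b and Atp5c1), or 10.5%, only the replicate 1 libraries had a peak, both of them, against 5.67% of all promoters. The reverse pattern, seen at 1.28% of all promoters, occurred at 0 of the 38. All promoters include the 48.2% without a peak in any list, which can show neither pattern, whereas every member had a peak. The shares of members and of all promoters are therefore not on a like basis. Reads over the summit were a median of 1.97 times those of replicate 2 for CDK6-WT, over 32 genes, and 3.0 times for CDK6-K43M, over 28 genes. All promoters with a peak in both lists gave 1.69 and 2.43. Over the 26 members with 4 peaks, percentiles in the replicate 1 lists of the variants had a Spearman's rho of 0.825 across genes, and those in the replicate 2 lists 0.581. Between replicates of one variant rho was 0.452 for CDK6-WT and 0.410 for CDK6-K43M, across genes that share libraries and are no replicates. The lowest background in the lists, which rises with the depth of a library, was 1.54 and 1.73 reads with CDK6-WT (replicates 1 and 2) and 1.90 and 1.57 with CDK6-K43M.

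The members without a peak in CDK6-WT replicate 2 had 16 to 31 reads in replicate 1, with a median of 25.5, and those with one had 13 to 76, with a median of 36.5. For CDK6-K43M the missing members had 12 to 69 reads in replicate 1, with a median of 31.5, and the others 30 to 90, with a median of 45. The ranges of missing and listed members overlapped for both variants. A peak at the lower end of the lists, with a −log10 q under 2, stood on a median of 11 to 14 reads. A missing peak means only that none was called at this depth, and the part of depth in the missing peaks was not tested.

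A higher threshold widened the gap between the replicate numbers. At a −log10 q of 5 or more, 38 and 37 members had a peak in the replicate 1 lists (45.0% and 46.1% of all promoters) and 26 and 24 in the replicate 2 lists (30.9% and 31.0%). At 10 or more, 36 members had one in each replicate 1 list (38.6% and 39.9%). There were 9 in CDK6-WT replicate 2, against 15.8% of all promoters, and 7 in CDK6-K43M replicate 2, against 13.7%. The members that met the criterion of 3 lists numbered 28 at the lower threshold and 11 at the higher one, while 33.9% and 17.4% of all promoters passed. At the higher threshold complex IV had 4 of 10 promoters that met it, complex V 4 of 15, complex III 2 of 9 and complex II 1 of 4.

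**Figure D3:**
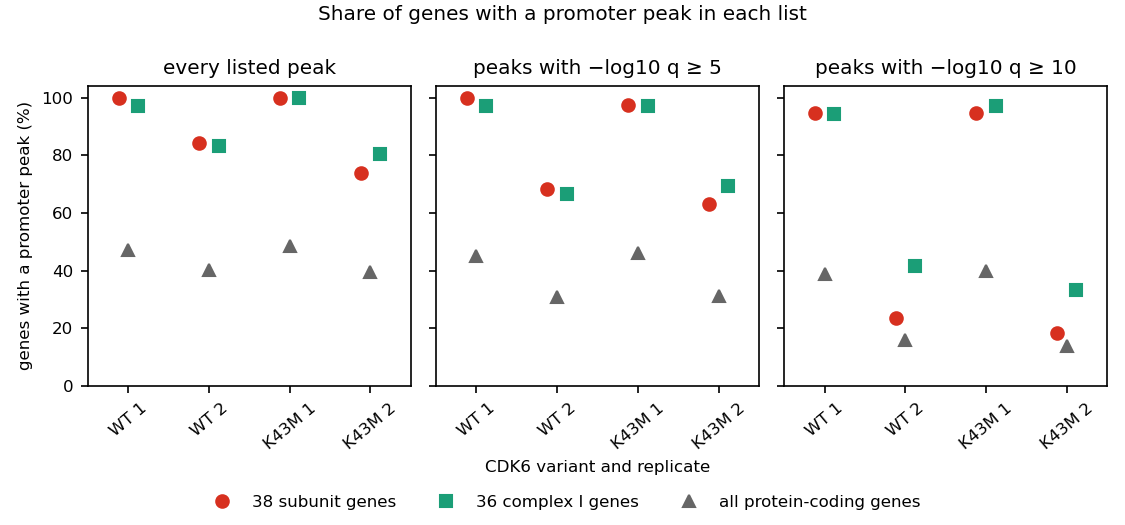
Share of genes with a promoter peak (y axis, percent) in each library (x axis) for every listed peak and for 2 minimum values of −log10 q, for the 38 subunit genes, 36 complex I genes and all protein-coding genes. At −log10 q of 10 or more, 36 of 38 subunit promoters have a peak in each replicate 1 list, and 9 and 7 in the replicate 2 lists.

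The summits lay close to the transcript starts. Measured to the nearest start of the gene, the median position was -8.5 bp in CDK6-WT replicate 1 and -27.5 bp in replicate 2, and -30.5 and -55 bp in the CDK6-K43M lists, where negative values are upstream. Within 100 bp of a start lay 32 of 38, 26 of 32, 32 of 38 and 17 of 28 summits, or 84.2%, 81.2%, 84.2% and 60.7%. Over all promoters with a peak these shares were 63.3%, 54.0%, 63.1% and 53.6%. Only 2 summits, both in CDK6-WT replicate 2, were more than 500 bp away, that of Uqcrh at -773 bp and that of Atp5o at -1502 bp. In the other 3 lists the strongest Atp5o summits were near the start, and weaker peaks were listed upstream. CDK6-WT replicate 2 also had a peak near the start, at the percentile 51.3 on 19 reads. The upstream peak there ranked barely above it, at 51.5 on 18 reads. The summits of the 4 lists spanned 100 bp or less at 16 of the 26 members with 4 peaks, with a median span of 74.5 bp, and Sdhb had the narrowest at 11 bp.

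**Figure D4:**
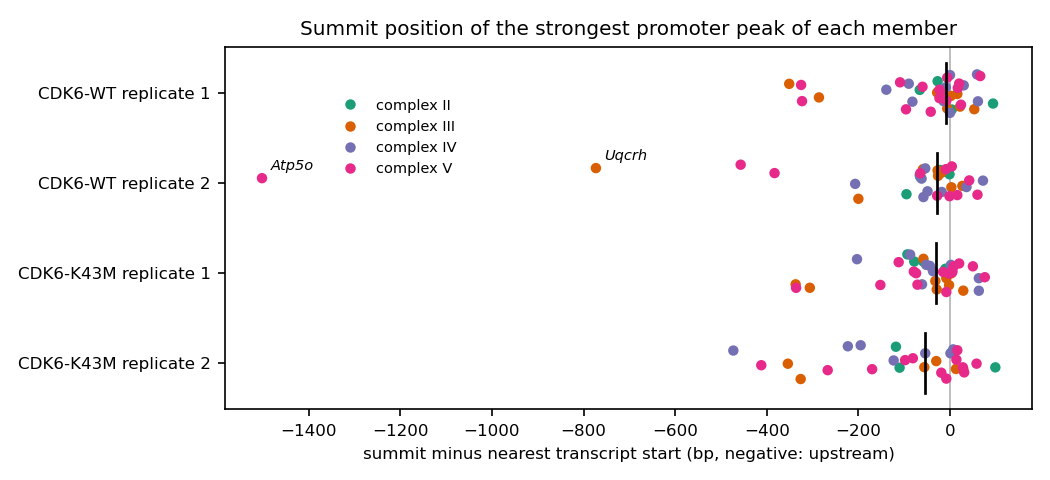
Position of the summit of the strongest promoter peak relative to the nearest transcript start of the gene (x axis, bp, negative upstream) in each library (y axis), with points coloured by complex, spread vertically for legibility, and black bars at the medians. Most points lie within 100 bp of the start, and Uqcrh and Atp5o in CDK6-WT replicate 2 lie more than 500 bp upstream.

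Many of these promoters were shared with a neighbour on the opposite strand. A head-to-head start of another protein-coding gene within 1000 bp was annotated for 14 of the 38 members, or 36.8%, against 10.9% of all protein-coding genes, at distances from 16 to 336 bp. The share was similar in related gene sets taken up below, at 38.9% of complex I subunits and 33.3% of assembly factors for complexes II to V. Complex II had 3 such genes of 4, complex III 4 of 9, complex IV 1 of 10 and complex V 6 of 15. In every list the strongest member peak at these promoters also overlapped the promoter of the partner (14 of 14, 10 of 10, 14 of 14 and 11 of 11), so the lists cannot assign the binding to one gene of the pair. By mean percentile over the lists with a peak, the highest of these head-to-head members were Atp5j, Atp5d, Atp5c1, Sdha and Sdhd. For Atp5c1 that mean rests on the replicate 1 lists alone, and for Sdha it leaves out CDK6-K43M replicate 2. Atp5j lay 93 bp from Gabpa, which encodes the DNA-binding subunit of GABP, and Atp5d 16 bp from Cbarp, a regulator of calcium channels. Atp5c1 lay 83 bp from Kin, Sdha 29 bp from Ccdc127, and Sdhd 98 bp from Timm8b, whose product helps proteins into the inner membrane. The median percentiles of head-to-head members were 86.3 and 57.6 with CDK6-WT and 86.5 and 44.9 with CDK6-K43M. Those of the other members were 87.3 and 53.8 with CDK6-WT and 88.8 and 57.0 with CDK6-K43M, with no common order over the 4 lists.

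Because NRF-1 and GABP are known regulators of these genes, 8 motifs were searched on both strands within 100 bp of the summit. The NRF-1 core GCGCANGCG was present at 12 of 38, 9 of 32, 12 of 38 and 6 of 28 member summits in the order used above, or 31.6%, 28.1%, 31.6% and 21.4%. Over all promoter peaks the shares were 15.0%, 12.4%, 14.9% and 11.8%. The full NRF-1 consensus, which contains the core, was found at 4, 3, 4 and 3 member summits, up to 10.7%, against 2.68% to 3.46% of all promoter peaks. ETS matches (CCGGAAG) occurred at 12, 10, 11 and 7 summits, or 31.6%, 31.2%, 28.9% and 25.0%, against 20.7%, 17.2%, 19.9% and 15.8%. YY1 matches (AAGATGGCG) occurred at 3, 2, 4 and 4 summits, against 2.40% to 3.73% of all. The member shares lay above those of all promoter peaks in every list for these 4 searches, also within 50 or 200 bp of the summit, which is a description of overlapping gene sets and not a test. Within 50 bp the ETS shares in CDK6-K43M replicate 1 were close, at 13.2% against 12.9%.

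SP1 matches (GGGGCGGG) were found at 7.14% to 15.8% of member summits, below the 15.2% to 22.1% of all promoter peaks in each list. Within 50 bp this order turned in CDK6-WT replicate 2, at 9.38% against 8.65%. NFY matches (CCAAT) were found at 18.4% to 23.7% against 20.7% to 26.7%. The member share was the higher one in CDK6-K43M replicate 2, at 21.4% against 20.7%. Within 50 bp the NFY share of the members was higher in CDK6-WT, at 18.4% and 15.6% against 15.2% and 12.2%. It was also higher there in CDK6-K43M replicate 2, at 14.3% against 11.1%, but lower in CDK6-K43M replicate 1, at 10.5% against 15.5%. GFY (ACTACAAT) was matched at 1 summit, that of Atp5d in 1 list, and RUNX (TGTGGTT) at up to 1 summit a list. No match means only that these letters are not within the window.

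Per gene, the NRF-1 core lay at the summit in every list that had a peak at 9 members, Sdha, Sdhd, Uqcrc1, Uqcr11, Cox6a1, Cox6c, Atp5c1, Atp5g2 and Atp5k. An ETS match did so at 9 members, Sdhb, Sdhd, Uqcrq, Uqcr11, Cox6b1, Atp5a1, Atp5e, Atp5j and Atp5k. YY1 did so at Uqcrc1 and Atp5j2. Each complex was represented for NRF-1 and ETS, with 2, 2, 2 and 3 members for the NRF-1 core and 2, 2, 1 and 4 for ETS in complexes II, III, IV and V. Presence of a motif did not order the peaks in the same way in each list. With the NRF-1 core the median percentiles were 87.8 and 47.3 with CDK6-WT and 90.2 and 62.4 with CDK6-K43M, and with neither the core nor an ETS match they were 86.8 and 59.7 against 84.7 and 44.9. The weakly bound Atp5a1 and the strongly bound Atp5j both carried an ETS match, and Cox7a2, among the strongest, carried none of the 3 motifs shown in capitals above.

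**Figure D5:**
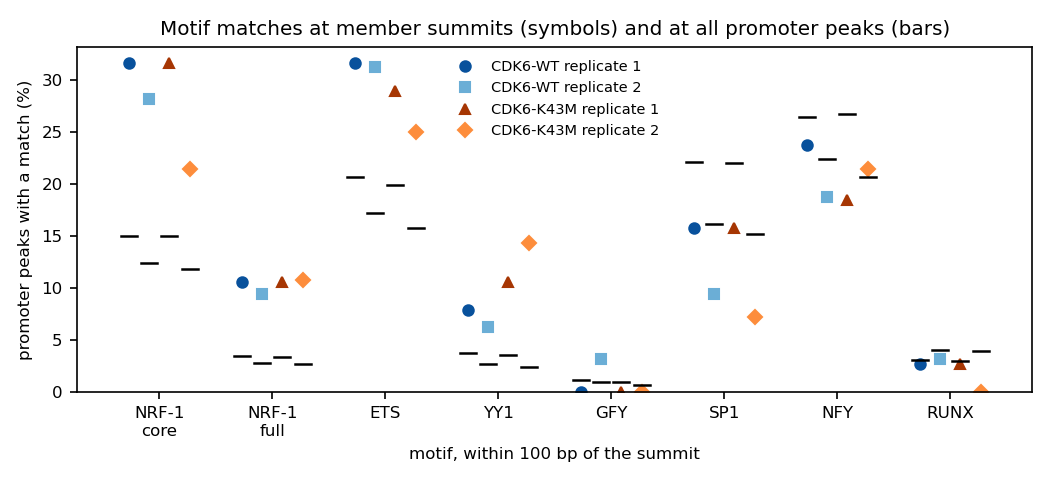
Share of promoter peaks with a motif match within 100 bp of the summit (y axis, percent) for 8 motifs (x axis), with symbols for the subunit genes by library and black bars for all protein-coding promoter peaks of the same library. The symbols lie above the bars in every library for NRF-1, ETS and YY1 and below them in every library for SP1, which turned in CDK6-WT replicate 2 within 50 bp.

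Other genes of the same machinery gave the context for these values. Of 36 complex I subunits, 35, 30, 36 and 29 had a peak in CDK6-WT replicates 1 and 2 and CDK6-K43M replicates 1 and 2, and 32 had one in at least 3 lists. Of 33 assembly factors for complexes II to V, which build the enzymes but are no part of them, 33, 25, 33 and 25 had a peak and 28 had one in at least 3 lists. Thus 88.9% and 84.8% met the criterion of 3 lists, beside 89.5% of the subunits of complexes II to V. At a −log10 q of 10 or more the criterion was met by 18 of 36 complex I promoters, or 50%, and by 28.9% of the subunits of complexes II to V. The median percentiles of the complex I promoters in the replicate 2 lists were 65.6 and 61.2, above those of all promoters, where those of complexes II to V lay below. These differences between gene sets were not tested. Cytochrome c (Cycs), the carrier between complexes III and IV, and Atpif1, the inhibitor of complex V, lacked a peak only in CDK6-K43M replicate 2. Of 8 isoform genes used mainly in muscle, lung or testis, such as Cox6a2, Cox8b and Cyct, 7 had no promoter peak in any list. The exception was Cox7a1, the muscle and heart form of subunit 7a, with percentiles of 62.3 and 4.13 for CDK6-WT and 67.7 for CDK6-K43M replicate 1.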

How the data were processed

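ChIP-seq against the HA tag was analysed from 4 libraries, 2 with CDK6-WT and 2 with CDK6-K43M, grouped by variant and replicate number as in their titles; the 2 input libraries were not analysed here. Per the labels and the study's methods, the authors used Trimmomatic 0.36 for trimming, BWA 0.7.15 for alignment to mm10, and for filtering SAMtools 1.3.1 and bedtools, and MACS2 2.1.0 called the peaks of each library separately. For each peak the deposited lists give a score, the fold enrichment as a ratio to the background, −log10 p and −log10 q values, and, as another value, the offset of the summit. Their lowest −log10 q was 1.31 to 1.34, and they hold no read totals.

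Promoters were taken from GENCODE M21, whereas the authors used an earlier release, both on GRCm38 (mm10), and 1 gene model was used per symbol (for Atp5o the lower identifier). Percentiles are ranks of −log10 q within a list, for the strongest peak of a promoter, and they are not comparable in scale between lists. Reads over a summit were solved from the fold enrichment and the p-value, with whole reads matching within 0.001 of the −log10 p for 100% of the peaks, and the promoter search and this recovery were tested on simulated data. The recovered scaling made the CDK6-WT libraries 1.03 and 1.09 times and CDK6-K43M replicate 1 1.23 times as deep as their controls, and CDK6-K43M replicate 2 no deeper than its control. Spread between 2 libraries limits the precision. The software was scipy 1.17.1, pandas 2.3.3, numpy 2.4.6, pysam 0.24.0 and matplotlib 3.10.9 under Python 3.11.15.

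Members, gene lists, motifs and tests were chosen with earlier results of these data known. Genes are not replicates, so shares are given beside those of all protein-coding genes with no test, and genes with a peak in all 4 lists were compared by an exact permutation test over the libraries. Named are members without a peak in a list, the 2 highest and 2 lowest of each complex by mean percentile, up to 5 head-to-head and up to 5 motif-bearing members, and genes that differ from their list; other members were named after their values were seen. As alternatives, peaks were required to reach a −log10 q of 5 or 10, and lists were cut to equal length. Others were windows of 500 bp, summits inside the window, starts of protein-coding transcripts or genes alone, ranking by fold enrichment, motif windows of 50 or 200 bp, a block for the replicate number, and each library left out in turn.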

Additional observations from a re-analysis of the deposited data

How the results depend on the processing

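Over 15 results 103 alternative values were computed, of which 81 stayed within the spread between libraries or within 1.5 times the count, 16 moved further and 6 changed sign. The mean number of subunit promoters with a peak per list, 34, fell to 22 when a −log10 q of 10 was required, and the number with a peak in at least 3 lists, also 34, was 11 there, since fewer peaks enter. The excess of replicate 1 over replicate 2, 8 promoters, was 12.5 at a minimum of 5 and 28 at 10. The difference between the variants had no stable sign. The median percentile difference, -0.98, was 0.25 with gene starts alone and 0.38 when peaks were ranked by fold enrichment. Leaving out one library gave -22.0 to 16.6, with 10.3 without CDK6-WT replicate 1 and 16.6 without CDK6-K43M replicate 2. The difference in promoters with a peak, -2, ran from -7 to 3, with 1 and 3 without the same libraries, since the variant left with 1 library then takes its replicate number. With the replicate number as a block the values were -2 and -0.98, as without it. They cannot differ, since each number holds 1 library of each variant, although both are counted among the 81. What the number marks is not stated in the labels. Motif shares, as averages over the lists, moved with the window. Within 50 bp of the summit the NRF-1 core fell from 28.2% to 21.1%, the full NRF-1 consensus from 10.3% to 6.21%, ETS from 29.2% to 16.7%, YY1 from 9.74% to 2.99% and NFY from 20.6% to 14.7%, and SP1 was at 6.95%. The shares of all promoter peaks were also lower within 50 bp, for each of these motifs in every list. In an alternative added after the data were seen, with promoters without a peak set at percentile 0, the percentile difference was -1.90. The causes of the sign changes with the start definition and the ranking were not tested.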
